A study of Mus musculus with 2 samples.

Results

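The genes described here encode the TGF-β ligands (Tgfb1, Tgfb2, Tgfb3), the receptors that bind them (Tgfbr1, Tgfbr2), the co-receptor betaglycan (Tgfbr3) and the latent TGF-β binding proteins (Ltbp1, Ltbp2, Ltbp3, Ltbp4). Members were all peaks that the annotation in the deposited ATAC-seq table assigns to one of these 10 genes by symbol. They came to 68 of the 63316 peaks in the table, in which 43864 peaks were assigned to 1 of 16934 genes. ATAC-seq marks open chromatin by the insertion of sequencing adapters by the Tn5 transposase, so a more open region collects more reads. The cells were primary murine cardiac fibroblasts, transfected with scrambled siRNA (NC) or with siRNA against Piezo2, a mechanosensitive ion channel (SiPiezo2 in the labels, siPiezo2 here), and both groups were then treated with TGF-β (5 ng/ml, 24 h). The scrambled siRNA, the dose and the time come from the study's legend, since the labels give NC as TGF-b alone. There was 1 library a group, so no difference has a replicate check and no p-value is given. Intervals cover counting error only, except where they are said to be widened. The study's mouse strains had a C57BL/6 J background, the age of the mice is not given for these libraries, and an siRNA acts on the transcript, so accessibility does not check the knockdown. The description of the series names a knockout of Tet3 by Cre where the labels name an siRNA against Piezo2, and the groups used here are those of the labels.

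TGF-β is secreted in a latent form, in which the mature dimer stays bound to its own propeptide. LTBPs attach this complex to the extracellular matrix, from which integrins, proteases and thrombospondin can release the ligand. The released ligand binds TGFBR2, often handed over by betaglycan, and TGFBR2 then phosphorylates TGFBR1, which activates SMAD2 and SMAD3. In cardiac fibroblasts this pathway is best known for driving the transition to myofibroblasts and the deposition of collagen.

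Markers of fibroblasts were open at their start sites, 9 of 12 with a peak within 1 kb, with a summed normalized density of 732 in NC and 681 in siPiezo2. Among the markers of other cells, a peak within 1 kb of a start site was found for 1 of 8 cardiomyocyte genes (density 15.4 in NC and 16.9 in siPiezo2), 1 of 7 endothelial genes (25.8 and 28.1), 0 of 7 macrophage and leukocyte genes, 2 of 6 smooth muscle and pericyte genes (108 and 75.8) and 3 of 4 epicardial genes (83.6 and 72.2). Of these lists, that of smooth muscle and pericytes had the largest relative difference in this density between the libraries, which rests on 2 genes. The part of this list in the results was not tested. In bulk libraries, fewer cells with an open site and a less open site in each cell cannot be told apart. The windows of all peaks held 4615335 reads in NC and 2754046 in siPiezo2, a ratio of 0.597. Each window spanned 2000 bp. Member peaks had 27 to 179 reads in NC and 15 to 109 in siPiezo2.

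Promoters of 8 of the 10 genes, with 12 start sites in all, were matched by symbol in RefSeq (GRCm38.p6). Those shown are the 250 bases before the starts of a ligand gene (Tgfb2) and of both receptor genes, before both starts of Ltbp1, of which the table has a peak at the second but not at the first, and before the second RefSeq start of Ltbp4. They lie at chr1:186705990-186706239 (minus strand) for Tgfb2, chr4:47352972-47353221 (plus) for the first start of Tgfbr1, chr9:116175364-116175613 (minus) for Tgfbr2, chr17:75005279-75005528 and chr17:75178531-75178780 (both plus) for the 2 starts of Ltbp1, and chr7:27333664-27333913 (minus) for the second start of Ltbp4, all in GRCm38.p6. Peak positions further on are as the table gives them. The table's gene coordinates matched GRCm38 for 1.95% of 16254 genes, so the peaks are on another assembly, and no peak sequence was read. Capitals mark the motifs searched, on either strand.
Tgfb2: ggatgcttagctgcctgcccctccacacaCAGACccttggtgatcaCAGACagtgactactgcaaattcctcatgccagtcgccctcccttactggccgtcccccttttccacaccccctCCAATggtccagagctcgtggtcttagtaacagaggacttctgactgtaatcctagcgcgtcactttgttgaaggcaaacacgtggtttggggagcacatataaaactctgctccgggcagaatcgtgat
Tgfbr1: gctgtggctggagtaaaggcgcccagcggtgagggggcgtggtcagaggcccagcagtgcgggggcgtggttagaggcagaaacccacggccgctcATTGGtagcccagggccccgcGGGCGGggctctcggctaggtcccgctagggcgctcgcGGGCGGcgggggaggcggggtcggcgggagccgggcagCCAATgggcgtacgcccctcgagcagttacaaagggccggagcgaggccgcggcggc
Tgfbr2: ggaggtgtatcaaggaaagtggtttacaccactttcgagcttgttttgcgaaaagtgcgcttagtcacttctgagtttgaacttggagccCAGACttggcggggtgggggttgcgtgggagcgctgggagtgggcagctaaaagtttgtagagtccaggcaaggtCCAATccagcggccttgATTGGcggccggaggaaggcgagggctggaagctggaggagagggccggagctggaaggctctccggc
Ltbp1 (first start): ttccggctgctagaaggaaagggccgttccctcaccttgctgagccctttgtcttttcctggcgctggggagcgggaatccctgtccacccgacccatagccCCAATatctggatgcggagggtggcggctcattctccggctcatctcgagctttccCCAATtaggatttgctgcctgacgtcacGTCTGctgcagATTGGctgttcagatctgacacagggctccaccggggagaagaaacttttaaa
Ltbp1 (second start): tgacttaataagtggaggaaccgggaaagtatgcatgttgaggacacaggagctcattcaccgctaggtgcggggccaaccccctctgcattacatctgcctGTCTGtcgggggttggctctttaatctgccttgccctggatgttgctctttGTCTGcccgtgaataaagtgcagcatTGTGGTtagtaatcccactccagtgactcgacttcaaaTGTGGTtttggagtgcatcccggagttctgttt
Ltbp4 (second start): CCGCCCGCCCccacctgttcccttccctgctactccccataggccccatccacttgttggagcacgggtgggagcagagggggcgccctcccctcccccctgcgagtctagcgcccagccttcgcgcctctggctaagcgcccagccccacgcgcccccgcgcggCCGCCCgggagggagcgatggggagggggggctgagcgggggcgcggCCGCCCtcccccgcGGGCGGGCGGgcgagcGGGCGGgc

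The letters searched on both strands were those of the SMAD box (CAGAC) and its palindromic form (GTCTAGAC), the site of TEAD factors (GGAATG), that of AP-1 (TGANTCA), the box of SP and KLF factors (GGGCGG), the box named for its letters (CCAAT), the site of RUNX factors (TGTGGT) and the CArG box of SRF. CAGAC was found in 7 of the 12 promoters, of 6 genes, against 42.2% of 32851 RefSeq promoters of the same length. Tgfb2, Ltbp2 and the second start of Ltbp1 had it 2 times each, and the last also carried TGTGGT 2 times. GGGCGG was found in 6 of the 12, of 4 genes, against 32.7%, with 7 copies in the promoter of the second start of Ltbp4, some of them overlapping. Of these 6, 3 belong to Ltbp4, whose later starts lie 3949 and 3964 bp from its first, so that their promoters share nearly all of their bases. CCAAT was found in 5 of the 12, against 33.8%, and TGTGGT in 1 of the 12, against 14.0%. None of the 12 held GGAATG (12.6% of all promoters), TGANTCA (6.75%), GTCTAGAC (0.167%) or the CArG box (1.47%). Of the 12, 10 had a GC content above the median promoter (52.4%), up to 79.2% at the second start of Ltbp4.

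The 68 peaks as a set differed little between the libraries. Their summed density was 1995 in NC and 1951 in siPiezo2, a log2 ratio of -0.03 (95% counting interval -0.10 to 0.03). The log2 ratio used throughout is log2((siPiezo2 + 1)/(NC + 1)) of the authors' normalized densities, and its intervals are exact binomial (Clopper-Pearson) from the recovered reads. The median over the member peaks was -0.12 (quartiles -0.35 and 0.26), beside -0.13 (-0.41 and 0.12) over all peaks, and 57.4% of member peaks lay below 0, beside 63.7% of all peaks. Past 1.5-fold, 7 of 68 member peaks were lower, beside 14.2% of all peaks, and 4 were higher, beside 3.21%. Of the 7 lower peaks, 5 were called in NC only, and of the 4 higher peaks 3 were called in both libraries and 1 in siPiezo2 only. Under other scalings the split changed in the members and in all peaks alike. It was 3 lower and 6 higher under median-of-ratios scaling, beside 8.84% and 6.27% of all peaks, 5 and 5 at the same total density, beside 10.5% and 4.90%, and 4 and 9 with recovered reads at the same total, beside 7.89% and 7.998%. Intervals lay below 0 at 6 member peaks, beside 11.4% of all peaks, and above 0 at 4, beside 3.63%. These intervals were not widened for the extra variance described further on. Most of those below 0 were at peaks called in NC only, and those above 0 include a pair of Ltbp1 peaks whose windows overlap and share reads. No gene of the 10 passed 1.5-fold in summed density in either direction, where 6.6% of all genes were lower and 1.54% higher.

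**Figure D1:**
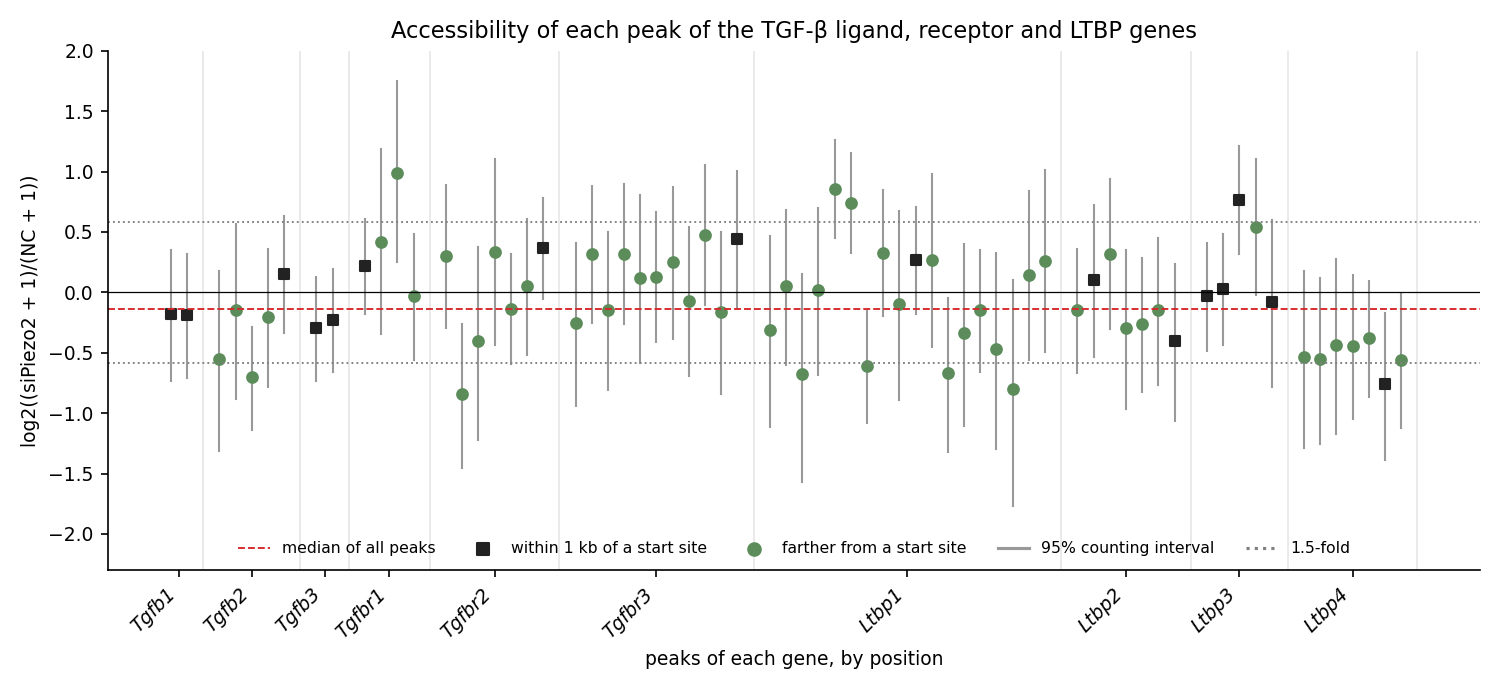
Log2 ratio of normalized density, siPiezo2 to NC, of each of the 68 peaks (points) in order of position within each gene, with 95% counting intervals (grey lines), where black squares lie within 1 kb of a start site and green circles farther away, and the dashed line is the median of all peaks. All 7 peaks of Ltbp4 lie below 0, while Ltbp1 spans -0.80 to 0.85.

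By role, the ligands had the lowest summed ratio. Of the 9 peaks of the ligand genes, 8 were below 0, beside 62.6% of all peaks assigned to a gene, and their summed log2 ratio was -0.28 (-0.45 to -0.12). Of these 9 peaks, 6 were called in NC only, and over all peaks of that call 73.1% were below 0. The receptors Tgfbr1 and Tgfbr2 had 7 of 11 peaks above 0 and a summed log2 ratio of 0.10 (-0.06 to 0.25). Betaglycan also had 7 of 11 peaks above 0, with 0.16 (-0.02 to 0.33). The LTBP genes had 23 of 37 peaks below 0 and summed to -0.04 (-0.13 to 0.05), with Ltbp4 and Ltbp3 at opposite ends.

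Tgfb1 encodes the ligand most widely studied in cardiac fibrosis. It had 2 peaks, at chr7:25386580-25386899 in the 5′ UTR and at chr7:25388528-25388983 in an exon, each within 1 kb of a start site. Their densities were 33.89 and 37.96 in NC and 29.74 and 33.16 in siPiezo2. Both ratios were close to each other (-0.18 and -0.19), and the interval of their sum, -0.56 to 0.17 around -0.19, took in 0.

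Tgfb2, the ligand best known for endothelial to mesenchymal transition in the developing heart valves, had the lowest ratio of the ligands, and its lower density lay away from its start site. Its summed density was 177 in NC and 141 in siPiezo2, a log2 ratio of -0.33 (-0.57 to -0.09). The peak over the start site, chr1:186438161-186438361, had a density of 36.1 in NC and 40.3 in siPiezo2, a log2 ratio of 0.15 (-0.33 to 0.63). The 4 peaks in intron 1 together had 141 and 100, which is -0.49 (-0.77 to -0.21), and each of them was below 0. Of these 4 peaks, 3 were called in NC only, and such peaks lean low in the whole table (median -0.23, 73.1% below 0), so the interval is not support for a difference. The strongest, chr1:186427409-186428034, went from 69.3 to 42.2 (179 and 64 reads, log2 ratio -0.70, -1.14 to -0.28) and was called in both libraries. It was the ligand peak past 1.5-fold. Near 3 of these 4 peaks the closest annotated start was that of Gm29491, an antisense transcript, and open chromatin carries no strand, so the peaks cannot be told apart by gene.

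Tgfb3, a ligand expressed by fibroblasts and other mesenchymal cells, had a peak over its start and a peak upstream of it, whose windows overlap and share reads. The peak over the start, chr12:86125677-86126028, had a density of 56.5 in NC and 45.8 in siPiezo2, and chr12:86126185-86126439 had 54.7 and 46.4. Both were lower in siPiezo2, at log2 ratios of -0.30 and -0.23, with intervals that took in 0.

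Tgfbr1, the type I receptor kinase that phosphorylates SMAD2 and SMAD3, had the highest summed ratio of the 10 genes. Its density was 113 in NC and 138 in siPiezo2, a log2 ratio of 0.29 (0.03 to 0.55). The start-site peak, chr4:47352811-47353361, was the strongest member peak by mean density and had 53.3 in NC and 62.0 in siPiezo2 (0.21, -0.18 to 0.60). Of its other peaks, 2 lay in intron 4, where chr4:47402275-47402541 went from 11.9 to 24.7 (27 and 41 reads). At 0.99 (0.25 to 1.75) this was the highest ratio of any member peak. The neighbouring chr4:47399906-47400181 had 13.7 and 18.7, and the peak in intron 8, chr4:47407194-47407574, 33.8 and 33.0. Without the weaker peaks, those under the median density of all peaks, the ratio of the gene was 0.12.

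Tgfbr2, the type II receptor that binds the ligand, had nearly the same sum in both libraries, 213 in NC and 210 in siPiezo2 (-0.02, -0.23 to 0.18). Its peaks went both ways. The peak over the start site, chr9:116004177-116004655, had 43.8 and 56.7, a log2 ratio of 0.36 (-0.06 to 0.78). In intron 6, chr9:115928198-115928663 went from 39.4 to 21.5 (96 and 34 reads), at -0.84 (-1.45 to -0.27) the lowest ratio of any member peak. This peak was called in NC only, and the limit given for such peaks at Tgfb2 holds for its interval. The remaining intron peaks lay between -0.40 and 0.34, and each of their intervals took in 0.

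Tgfbr3 encodes betaglycan, which presents ligand to TGFBR2 and can be shed. Its 11 peaks were spread over the gene and none passed 1.5-fold. The peak at its start, chr5:107437066-107437506, had 23.7 in NC and 32.5 in siPiezo2 (0.44, -0.13 to 1.01). The highest was chr5:107385883-107386355 in intron 2, with 22.5 and 31.7 (0.48), and the lowest chr5:107265081-107265287 in intron 16, with 23.0 and 19.1 (-0.25). All of the 11 intervals took in 0. The start-site peaks of the 3 receptor genes thus each lay above 0, with intervals that each took in 0.

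Ltbp1, a fibrillin-like matrix protein that carries the latent complex, had 18 peaks, a number that 0.809% of genes with a peak reach. Their sum was 470 in NC and 491 in siPiezo2 (0.06, -0.07 to 0.20), an interval that took in 0. The table had no peak within 1 kb of the first start of the gene, and the nearest lay 22.0 kb downstream. The peak at a start was that of a shorter transcript 173 kb downstream, chr17:75485327-75485884, with 40.7 and 49.2 (0.27, -0.18 to 0.71). RefSeq gives a similar pair of starts, 173252 bp apart.

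Within intron 3 of Ltbp1, peaks that lie close together went in opposite directions. At chr17:75417457-75417771 the density went from 39.0 to 71.2 (100 and 109 reads, log2 ratio 0.85, 0.45 to 1.26). The adjoining peak chr17:75417970-75418280, whose window overlaps, had 39.5 and 66.5 (0.74) and was the only member peak called in siPiezo2 alone. Over all peaks of that call the median was 0.58 and 49.8% were higher past 1.5-fold, so its ratio is not support for a difference. The next peak, chr17:75419906-75420281, went from 56.0 to 36.4 (142 and 56 reads, -0.61, -1.08 to -0.15). This last peak lay just inside the 1.5-fold threshold, where the nearest member peaks outside it were at Ltbp4 (-0.56 and -0.55) and Tgfb2 (-0.55). In the body of the gene, chr17:75551127-75551491 in intron 8 had 31.3 and 19.4 (-0.67, -1.32 to -0.04) and was called in NC only, with the same limit. The lowest ratio of the gene, -0.80 (-1.77 to 0.10), was at chr17:75614103-75614400 in intron 20, with 37 and 15 reads. Counting the overlapping pair by its first peak only, the sum over Ltbp1 was -0.02.

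Ltbp2, which binds no latent TGF-β itself and is a component of elastic fibres and microfibrils, had 7 peaks that summed to 191 in NC and 175 in siPiezo2 (-0.13, -0.35 to 0.09). Of its 2 peaks within 1 kb of a start site, the one upstream of the first start, chr12:84923537-84923893, had 26.6 and 19.9 (-0.40), its lowest. The other, chr12:84837676-84838035 in an exon near an internal start, had 22.4 and 24.1 (0.10). The highest was chr12:84841481-84841681, upstream of an internal start, with 21.1 and 26.6 (0.32). None passed 1.5-fold, and all intervals took in 0.

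Ltbp3, which is needed for the secretion and storage of latent TGF-β in bone and the aorta, summed to 165 in NC and 199 in siPiezo2 (0.27, 0.05 to 0.48). The difference was not at its first start, where chr19:5790886-5791226 had 45.8 and 44.7 (-0.03). Near the starts of retained-intron transcripts within the gene, chr19:5791849-5792111 had 42.5 and 43.2 (0.03). At chr19:5793551-5793984 the density went from 33.4 to 57.3 (84 and 89 reads, log2 ratio 0.76, 0.32 to 1.21), and chr19:5799491-5799798 had 23.2 and 34.3 (0.54, -0.02 to 1.11). Its lowest ratio was -0.08, at chr19:5806742-5806950 in an exon, with 20.2 and 19.0.

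Ltbp4, an LTBP of elastic tissues that binds the latent TGF-β1 complex weakly, had the lowest ratio of the 10 genes. Its density was 225 in NC and 155 in siPiezo2, a log2 ratio of -0.53 (-0.76 to -0.31), with 8.51% of genes with a peak at a lower ratio. All 7 of its peaks were below 0, from -0.76 to -0.38, and all 7 were called in NC only, as were 70.6% of member peaks and 64.0% of all peaks. Peaks called in NC only entered the table through NC, the library with more reads in the windows. Over all such peaks the median was -0.23, with 73.1% below 0. An interval below 0 at Ltbp4 is thus not support for a difference. The lowest, chr7:27033880-27034256, lay upstream of the start of the internal transcript Ltbp4-205 in the table's annotation (distance -980 bp), itself 4.03 kb downstream of the first start there, and had 36.0 in NC and 20.8 in siPiezo2 (87 and 33 reads, -0.76, -1.39 to -0.17). The peak in intron 1, chr7:27035384-27035584, had 38.73 and 26.02 (-0.56, -1.12 to -0.01). The strongest, chr7:27030404-27031021 in intron 4, had 47.3 and 36.1 (-0.38, -0.86 to 0.09), the highest ratio of the gene. Toward the 3′ end, chr7:27004747-27005036 had 25.9 and 17.3, and chr7:27004377-27004635 22.8 and 15.4. Some of these windows overlap, and the 5 peaks with separate windows gave -0.52 (-0.78 to -0.26).

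**Figure D2:**
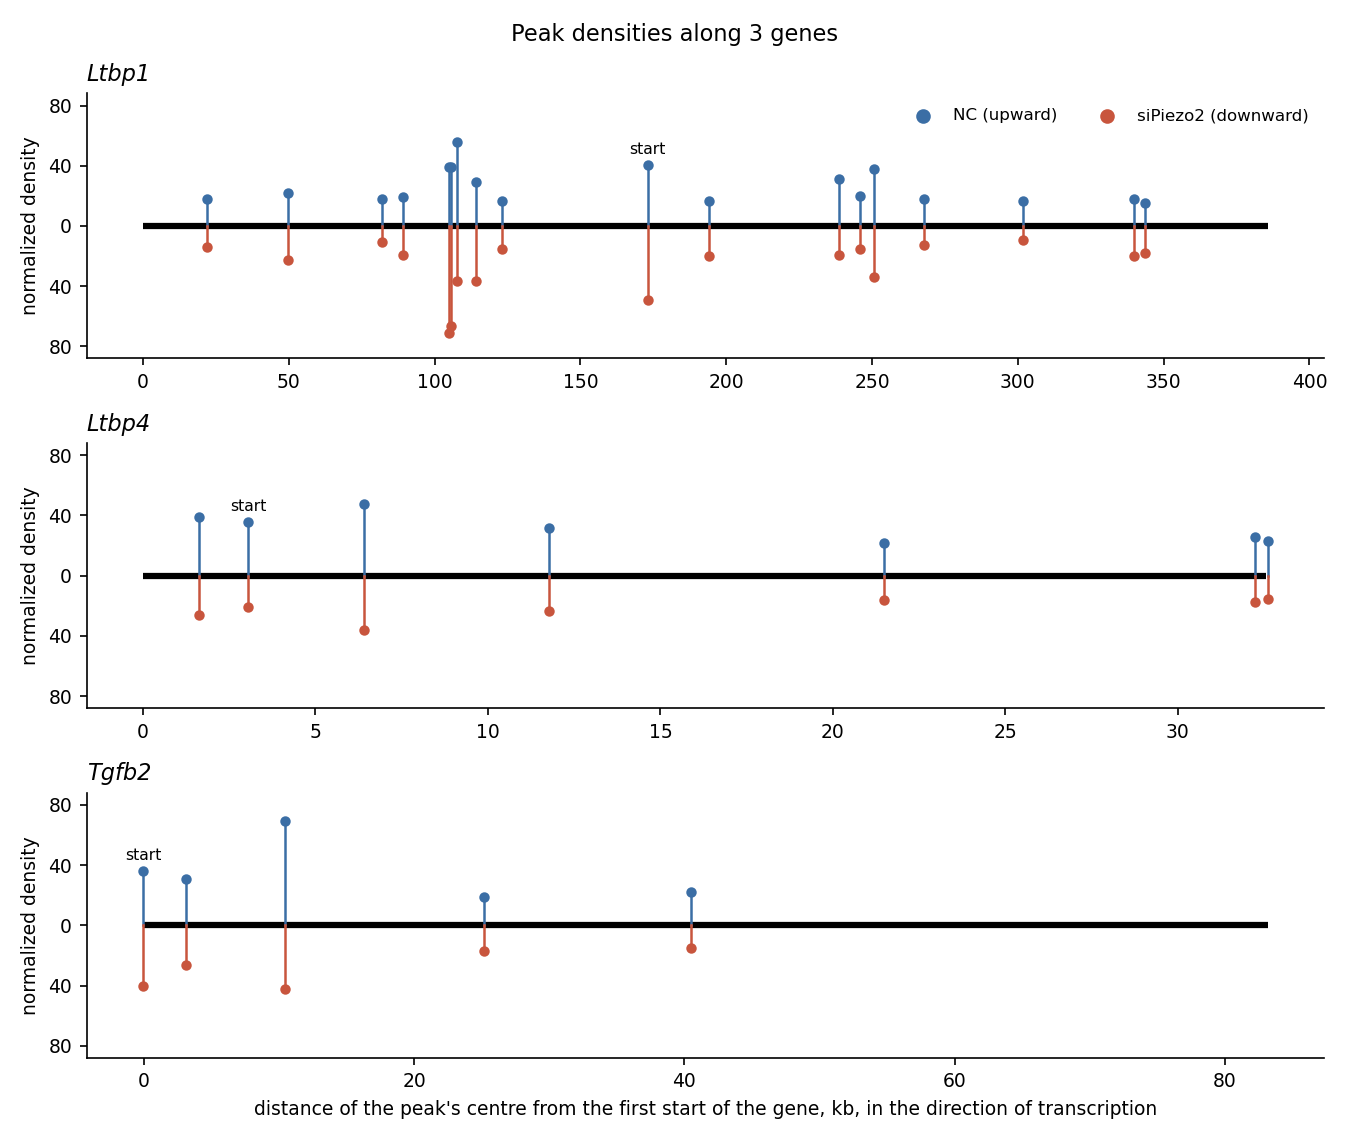
Normalized density of each peak of Ltbp1, Ltbp4 and Tgfb2 in NC (blue, upward) and siPiezo2 (red, downward) against the distance of its centre from the first start of the gene in kb, with the gene as a black bar and peaks within 1 kb of a start site marked. Ltbp1 has no peak at its first start and neighbouring peaks that differ in opposite directions in intron 3, Ltbp4 is lower in siPiezo2 at each of its 7 peaks, and Tgfb2 is lower at its 4 intron peaks but not at its start.

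In order from the lowest, the summed log2 ratios ran Ltbp4, Tgfb2, Tgfb3, Tgfb1, Ltbp2, Tgfbr2, Ltbp1, Tgfbr3, Ltbp3 and Tgfbr1. Intervals of neighbours in this order overlapped in every case. The median over all genes was -0.09 (quartiles -0.29 and 0.10). At peaks called in both libraries with as many NC reads as the members, squared log ratios averaged 2.10 times the variance that counting alone gives (19550 peaks). They were taken about 0 between NC and siPiezo2, so any difference between the conditions is in this factor. With intervals widened by the square root of that factor (1.45), those of Tgfb2 (-0.68 to 0.01), Ltbp3 (-0.05 to 0.58) and Tgfbr1 (-0.09 to 0.67) took in 0. That of Ltbp4 was -0.86 to -0.21, but Ltbp4 has no peak called in both libraries, on which the factor rests, and the range took in the median of all peaks called in NC only (-0.23).

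**Figure D3:**
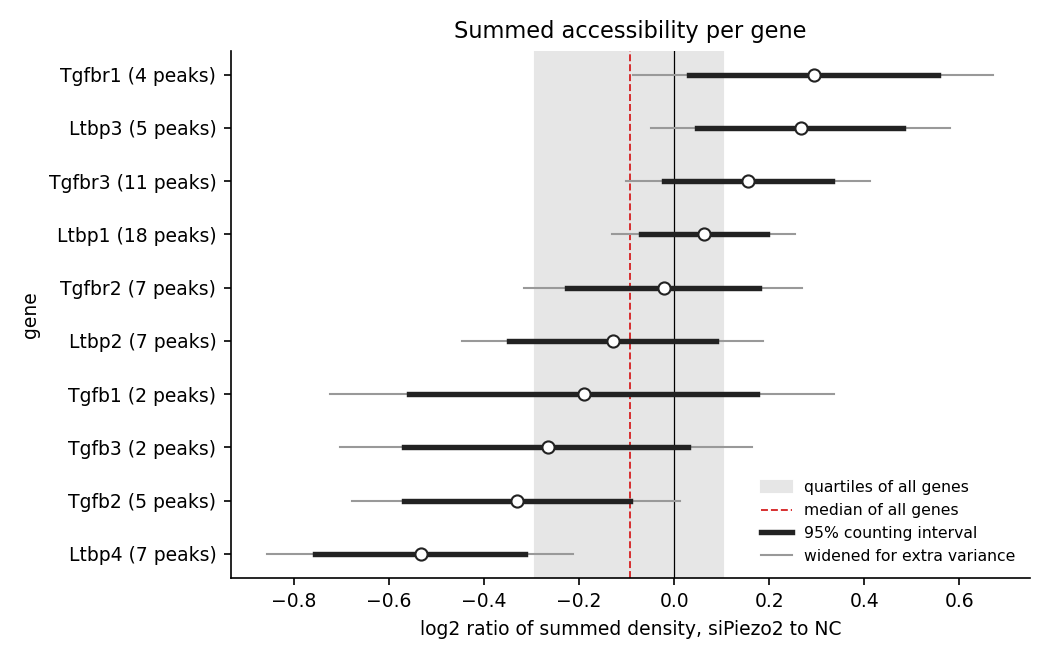
Log2 ratio of summed density, siPiezo2 to NC, of each gene (circles) with 95% counting intervals (thick lines), intervals widened for the extra variance of peaks called in both libraries (thin lines), and the quartiles (grey band) and median (dashed line) of all genes. The widened intervals of Tgfb2, Ltbp3 and Tgfbr1 take in 0, and that of Ltbp4, whose peaks were all called in NC only, runs from -0.86 to -0.21.

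The sign of a ratio near 0 depended on the scaling. Under the 3 other scalings, the ratios of Tgfb1, Tgfb2, Tgfb3 and Ltbp4 stayed below 0, and those of Tgfbr1, Tgfbr3, Ltbp1 and Ltbp3 above it. Tgfbr2 turned from -0.02 to between 0.07 and 0.12, and Ltbp2 from -0.13 to 0.01 under median-of-ratios scaling and 0.03 with recovered reads, but stayed at -0.04 at the same total density. The median of all peaks, -0.13 here, is 0 by construction under median-of-ratios scaling.

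**Figure D4:**
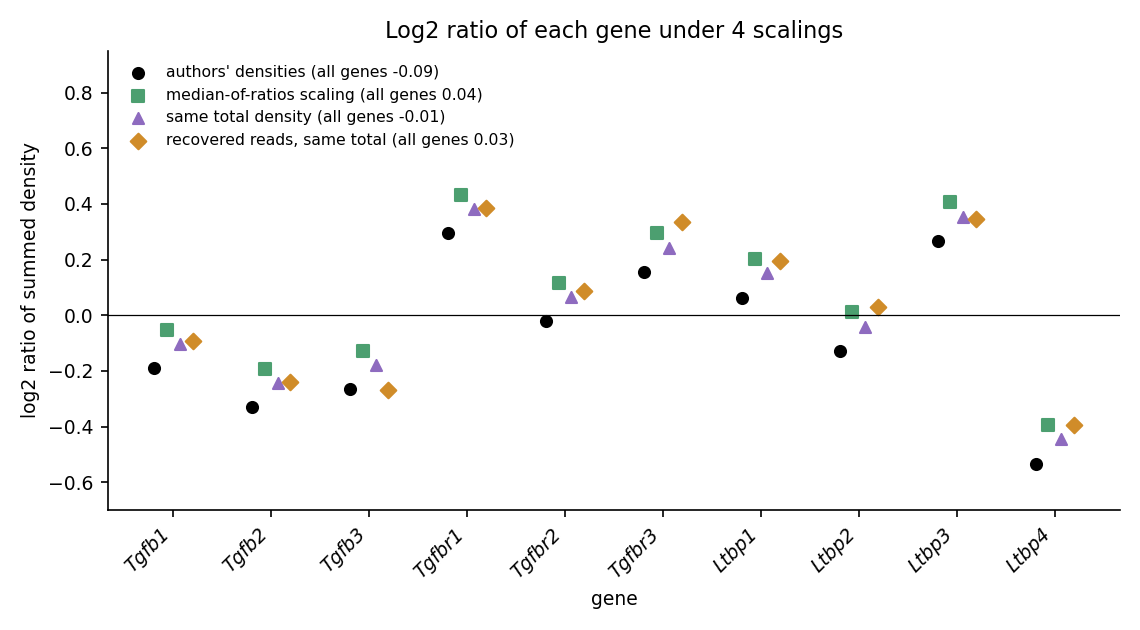
Log2 ratio of summed density of each gene under the authors' normalization (circles), median-of-ratios scaling (squares), the same total density (triangles) and recovered reads at the same total (diamonds), with the median of all genes under each in the legend. Ltbp4 is the lowest and Tgfbr1 the highest under each, and Tgfbr2 and Ltbp2 cross 0.

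Ratios also differed with how the peaks were called and where they lay. Of the member peaks, 19 were called in both libraries (27.9%, beside 33.8% of all peaks), with a median of 0.27, beside 0.0025 over all such peaks. The 48 called in NC only had a median of -0.16, beside -0.23. The 16 member peaks within 1 kb of a start site had a median of -0.0032, beside -0.042, and the 52 farther away -0.15, beside -0.17. Introns held 70.6% of member peaks, beside 60.6% of all peaks assigned to a gene, and the 48 intron peaks had a median of -0.15, beside -0.17.

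The rest of the pathway was counted over gene lists set by role. Of 74 listed genes outside the 10, 68 had a peak. Past 1.5-fold in summed density, 5 of the 68 were lower, beside 6.6% of all genes, and 0 were higher, beside 1.54%, with a median of -0.22 and 50 below 0, where 62.6% of all genes were. The counts are read off 1 library a group without a test.

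Genes of activation and storage outside the cell had a median of -0.22, with 2 of 21 lower, beside 6.6% of all genes. Thbs1, which encodes thrombospondin 1, an activator of latent TGF-β, was the lowest, with a summed density of 446 in NC and 184 in siPiezo2 (-1.28, -1.47 to -1.09). Tgm2, a transglutaminase that cross-links LTBPs into the matrix, was the highest, with 67.5 and 86.5 (0.35, 0.02 to 0.69). Co-receptors and receptor regulators had a median of -0.22 with 0 of 15 past 1.5-fold, between Fkbp1a, which holds the type I receptor inactive, at -0.44 (-1.10 to 0.19) and Strap, a receptor-associated inhibitor, at 0.19 (-0.28 to 0.66).

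Intracellular transducers had a median of -0.06 and 0 of 16 past 1.5-fold, between Smad4, the common SMAD, at -0.47 (-0.81 to -0.13) and Traf6, a ubiquitin ligase of the TAK1 branch, at 0.42 (-0.17 to 1.003). Target genes had the lowest median, -0.40, and 3 of 16 lower, beside 6.6% of all genes. Acta2, which encodes the smooth muscle actin of myofibroblasts, went from 165 to 43.2 (-1.91, -2.31 to -1.53), and Cdkn1a, a cell cycle inhibitor, from 83.6 to 114 (0.44, 0.15 to 0.74).

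**Figure D5:**
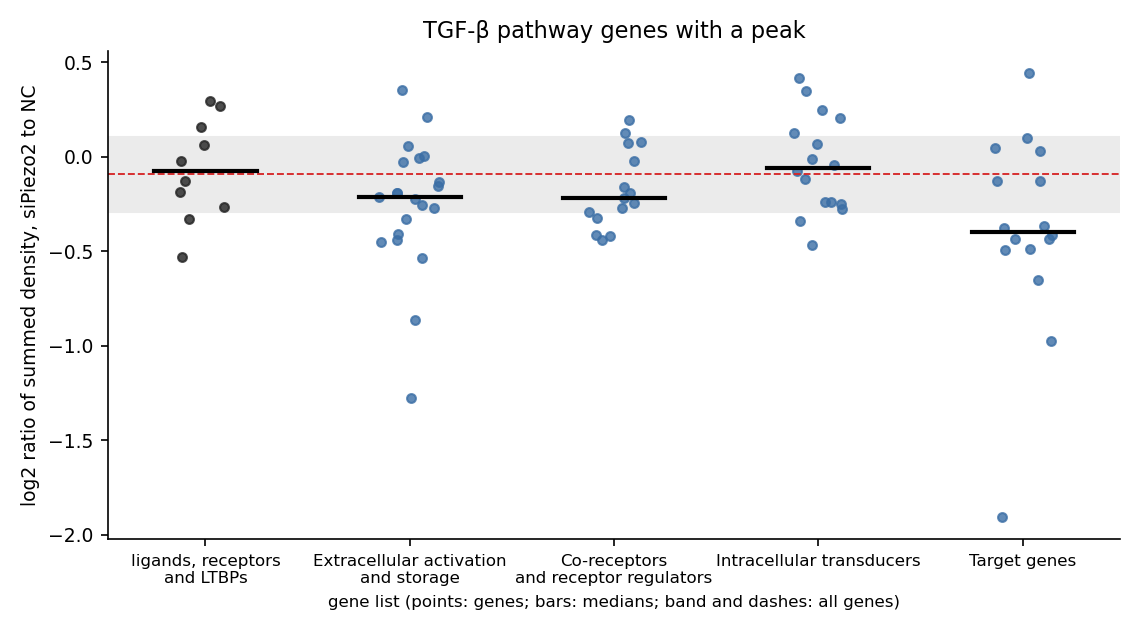
Log2 ratio of summed density, siPiezo2 to NC, of the 10 ligand, receptor and LTBP genes (black points) and of the genes with a peak in 4 further lists of the TGF-β pathway (blue points), with list medians (bars), the quartiles of all genes (band) and their median (dashed line). The 10 genes lie between -0.53 and 0.29, the co-receptors and regulators between -0.44 and 0.19, and the targets between -1.91 and 0.44.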

How the data were processed

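ATAC-seq libraries of TGF-β treated primary murine cardiac fibroblasts, 1 of NC and 1 of siPiezo2, were grouped by the labels. The study's methods name trimming, alignment with BWA (0.7.12 in the submitters' processing notes), duplicate removal with Picard and peak calling with MACS2. The methods text starts from tissue pieces with another kit than that in the labels, while the study's reagent list holds the kit of the labels, and this difference was left unsettled. The processing notes name mm10, whereas the gene coordinates of the table differ from GRCm38. The deposited file is 1 peak table, in which the authors' signal columns are read densities normalized between the libraries by a fit that changes with density. The authors' log2 columns and p-value columns, which hold their own comparison and the mean density, were not used. The tool that made these columns is not given in the sources used here.

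The reads in each window of 2000 bp came out whole for 100% of peaks (tolerance 0.05) by finding the intercept and slope of the authors' fit, and 1 read per window, taken to be a pseudocount, was removed. The log2 ratio took a pseudocount of 1 density unit, and densities were summed over all peaks of a gene. Intervals are 95% exact binomial (Clopper-Pearson) intervals and treat overlapping windows as independent. With 1 library a group there was no test and no percentile by resampling. All 10 genes were named, with, for each, the strongest peak within 1 kb of a start site and the peaks of lowest and highest log2 ratio with at least 30 reads over both libraries. Peaks in the text beyond this rule were chosen after their values were seen. In the list of target genes, 1 gene is not reported here and was left out of its counts. The members and lists were chosen with earlier results of these data known. Alternatives covered the pseudocount (0.1), 3 scalings, the fold threshold (2), overlapping windows, start-site distance, peak calls and peak strength. The widened intervals were added after seeing the data. Read recovery and the counting intervals of single peaks were run on simulated reads drawn from the model they assume. That run had no extra variance and no overlapping windows, so it does not check these assumptions. Scripts ran in Python 3.11.15 with scipy 1.17.1, pandas 2.3.3, numpy 2.4.6 and, for figures, matplotlib 3.10.9.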

Additional observations from a re-analysis of the deposited data

How the results depend on the processing

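The median log2 ratio over the 68 peaks, -0.12, moved to 0.0177 under median-of-ratios scaling, -0.0317 at the same total density, 0.0587 with recovered reads at the same total, -0.00323 at peaks within 1 kb of a start site, 0.27 at peaks called in both libraries and -0.0321 at peaks above the median density. The 7 lower peaks (14.2% of all peaks) became 3 under median-of-ratios scaling (8.84%), 4 with recovered reads (7.89%), 1 of 16 within 1 kb of a start site (6.91%), 2 of 19 called in both libraries (5.79%) and 0 at 2-fold (2.76%). The 4 higher peaks (3.21%) became 9 with recovered reads (7.998%), 1 of 16 within 1 kb of a start site (2.08%), 3 of 19 called in both libraries (4.41%) and 0 at 2-fold (0.504%). Of the ratios of genes whose interval left out 0, 1 reversed, that of Tgfb2, to 0.15 when peaks within 1 kb of a start site were taken alone, since its intron peaks are then left out, and Tgfbr2, Ltbp1 and Ltbp2, whose intervals took in 0, changed sign under some alternatives. With only peaks called in both libraries, Ltbp3 moved from 0.27 to 0.69, Tgfb2 from -0.33 to -0.70 and Tgfbr3 from 0.16 to 0.42. No value could be given for Ltbp4 from peaks called in both libraries, as it had none. The cause of the other moves was not tested. No paired analysis was possible because there was 1 library a group and no result comes from a test. With a median of 58 and 36 reads in the windows of a peak, changes well under 1.5-fold were not detectable at single peaks. Whether larger changes were detectable was not tested, with 1 library a group.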

Other observations

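A further 9 peaks had a start of one of the 10 genes as their nearest, but were assigned by the table to another gene or to none, and 7 of them lay between genes. Of the 9, 7 were below 0 and 3 were lower past 1.5-fold, with a median log2 ratio of -0.41, and 0 were higher. Over all peaks between genes, 66.3% were below 0, 17.3% lower and 4.02% higher, with a median of -0.18. Beyond the 3′ end of Ltbp4, chr7:26984324-26984859 had a density of 56.3 in NC and 37.1 in siPiezo2 (-0.59, -1.06 to -0.14), and its neighbour chr7:26985278-26985496 had 54.0 and 32.4 (-0.72, -1.22 to -0.24). The windows of this pair overlap and share reads, and the neighbour was called in NC only, the library in which it was higher. A peak between these and the gene, chr7:26991127-26991577, had 33.6 and 35.6 (0.08). Upstream of Tgfbr1, chr4:47330739-47331059 went from 29.7 to 14.9 (70 and 24 reads, -0.94, -1.68 to -0.26) and was called in NC only, so that it entered through the library in which it was higher, whereas chr4:47345452-47345730, nearer the start, had 15.4 and 18.2 (0.23, -0.53 to 0.97). Whether these peaks act on the genes nearest to them was not tested.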
